A study of Mus musculus with 4 samples.

Results

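The 8 genes described here encode connexins, the subunits of gap junction channels: Gjb1, Gjb2, Gjb5, Gjb6, Gja1, Gja4, Gja5 and Gjc1. They were taken by name, as all probes on the array whose gene name in the scanner files is one of these symbols. This gave 10 probes of 39429 gene probes, and 8 genes of 21501 genes tested. Total RNA was measured from ureters dissected from NMRI mouse embryos at E15.5. The cKO embryos were Pax2-cre/+; Trp63(dN-flox/dN-flox), so that Pax2-cre recombines both floxed alleles of the ΔN form of p63 (gene Trp63), a transcription factor of basal epithelial cells. The control embryos were Trp63(dN-flox/?) with no cre listed, and their second Trp63 allele is not stated. Each of 4 two-colour arrays set a cKO RNA against a control RNA, both female in replicates 1 and 2 and both male in replicates 3 and 4. The cKO RNA carried the red dye in replicates 1 and 3 and the green dye in replicates 2 and 4.

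Pax2-cre is active in the nephric duct lineage, from which the ureteric epithelium derives, while the mesenchyme, muscle and vessels of a whole ureter derive from other lineages. Pax2-cre was present in every cKO RNA and in no control RNA, so an effect of the transgene and loss of ΔNp63 cannot be told apart. Nothing in the labels says whether an RNA came from 1 embryo or from a pool, so p-values measure the spread between these RNAs only.

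Connexins assemble in groups of subunits into half-channels, and half-channels of neighbouring cells dock to form gap junctions, which pass ions and small molecules from cell to cell. The beta connexins Gjb2 (connexin 26), Gjb6 (connexin 30) and Gjb5 (connexin 31.1) are known from stratified epithelia and, for Gjb2 and Gjb6, from the cochlea, while Gjb1 (connexin 32) is known from glandular epithelia, liver and Schwann cells. Gja1 (connexin 43) is the most widespread connexin, in epithelium, mesenchyme and muscle. Gja4 (connexin 37) and Gja5 (connexin 40) are connexins of arterial endothelium, and Gjc1 (connexin 45) is found in smooth muscle and the heart's conduction tissue.

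Gjb2 and Gjb6 were lower in cKO ureters on all 4 arrays, by 1.81-fold and 2.07-fold, and none of the other 6 connexins passed the test. Each of the 2 genes was read by 1 probe on the minus strand of chromosome 14, and both probes are shown because the result rests on them. The coordinates are of mm9, as the scanner files give them. The Gjb2 probe lies at chr14:57717629-57717688 and the Gjb6 probe at chr14:57742226-57742285. The first 30 of the 60 bases of each probe are given 5′ to 3′, with no base singled out.
Gjb2 probe: caagttgaaccattaccactatgccttatg
Gjb6 probe: ttcattggacaatatacattgccgattgct
The longest run of bases shared by any 2 of the 10 connexin probes was 10, so no pair read the same stretch. All 10 probes were well above background in both RNAs on all 4 arrays. Which exon or UTR each probe lies in was not analysed here.

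Levels are given as normalised log2 intensity, which can be compared between RNAs for 1 probe but not between probes. Gjb2, whose product joins many epithelial gap junctions, had levels of 7.07, 7.31, 7.40 and 7.14 in the cKO RNAs of replicates 1 to 4. In the control RNAs its levels were 8.02, 7.92, 8.44 and 7.96. Every cKO RNA lay below every control RNA. The log2 ratios of cKO over control on the 4 arrays were -0.95, -0.61, -1.04 and -0.82. Their mean was -0.86 ± 0.19 (SD, n = 4 arrays), with a 95% interval from -1.04 to -0.67 and an adjusted p of 0.00795 (limma across all 21501 genes, Benjamini-Hochberg). With the background correction used here, the cKO level was thus 0.553 of control, with an interval from 0.485 to 0.629. This interval does not cover other ways of handling background, which gave larger differences.

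Gjb6, which can share channels with Gjb2 in the cochlea, had cKO levels of 9.36, 9.43, 9.87 and 9.48. Its control levels were 10.61, 10.13, 11.01 and 10.56. The groups again did not overlap, and the array with the smallest difference was replicate 2 for both genes. The log2 ratios of Gjb6 were -1.25, -0.70, -1.15 and -1.09, with a mean of -1.05 ± 0.24 (SD, n = 4), an interval from -1.27 to -0.83 and a limma adjusted p of 0.00668. Its cKO level was 0.484 of control, with an interval from 0.415 to 0.564. Among all genes tested, Gjb6 had the 51st and Gjb2 the 72nd lowest mean ratio.

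Over the whole array, 0.712% of genes were called lower in cKO (153 genes at adjusted p under 0.05) and 0.526% higher (113 genes). Of the 8 connexins, 2 were called lower and 0 higher. In 3.33% of all genes every cKO level lay below every control level, and in 3.05% above. The same 2 connexins were the only ones of the 8 without overlap, both below. The log2 ratio was below 0 on all 4 arrays for 7.66% of genes and above 0 on all 4 for 7.69%. Among the 8, it was below 0 on every array for Gjb2 and Gjb6 and above 0 on every array for none. The median log2 ratio of the 8 connexins was -0.01, against -0.000237 over all genes. The counts over all genes moved with single arrays: 509 genes were called lower without replicate 2 and 853 without replicate 4. Gjb2 and Gjb6 were called in each of these fits, which have 1 residual degree of freedom.

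**Figure D1:**
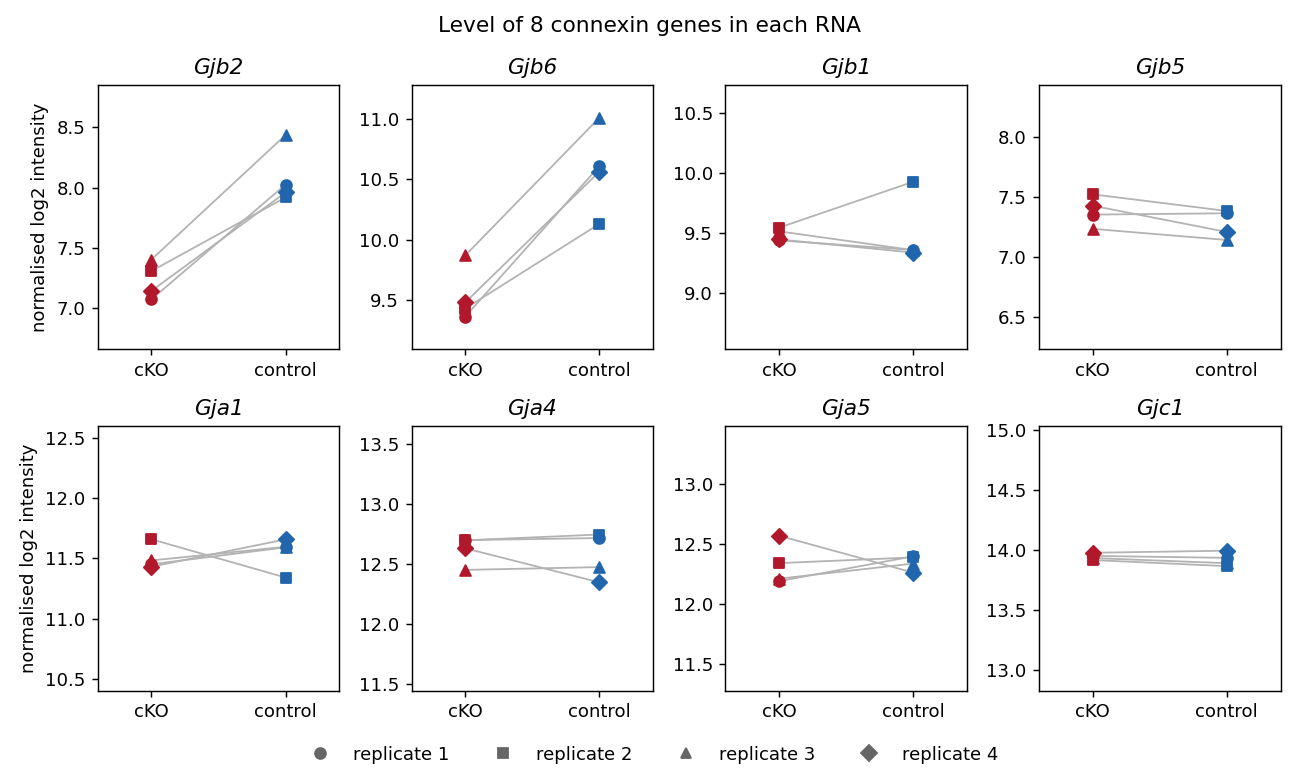
Normalised log2 intensity of each connexin gene (y axis, own range per gene but 1 span for all) in the 4 cKO RNAs (red, left) and the 4 control RNAs (blue, right), with a grey line joining the RNAs of 1 array. For Gjb2 and Gjb6 all red points lie below all blue points, while the groups overlap for the other 6 genes.

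The beta connexin Gjb1 had cKO levels of 9.44, 9.55, 9.52 and 9.45, and control levels of 9.36, 9.93, 9.36 and 9.34. The highest level of all was the control RNA of replicate 2, and the other 3 arrays had the cKO RNA slightly above the control RNA. The mean log2 ratio was -0.01 ± 0.25 (SD, n = 4), with an interval from -0.25 to 0.23. Gjb5 had cKO levels of 7.35, 7.52, 7.23 and 7.43, and control levels of 7.36, 7.38, 7.14 and 7.21. The groups overlapped, and the mean log2 ratio was 0.11 ± 0.10 with an interval from -0.07 to 0.29. The Gjb5 probe was dim, with raw signals of 91.9 to 193 on a local background of 25.5 to 79. With the processed signals of the scanner software the mean of Gjb5 was 0.19 (limma adjusted p = 0.739). Fewer than 4 arrays had the same sign for either gene.

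Gja1, the connexin of most tissues, had cKO levels of 11.45, 11.66, 11.48 and 11.43, against control levels of 11.59, 11.34, 11.60 and 11.66. Replicate 2 stood against the other 3 arrays, with the highest cKO level and the lowest control level. The mean log2 ratio was -0.04 ± 0.24 (SD, n = 4), with an interval from -0.30 to 0.22. Gjc1 had cKO levels of 13.95, 13.92, 13.93 and 13.98, against control levels of 13.93, 13.86, 13.89 and 13.99. Its 4 ratios had the smallest spread among the 8 genes, with a mean of 0.02 ± 0.03 and an interval from -0.15 to 0.20.

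The arterial connexin Gja4 had cKO levels of 12.70, 12.70, 12.45 and 12.63, against control levels of 12.72, 12.75, 12.48 and 12.35. Gja5 had cKO levels of 12.19, 12.34, 12.21 and 12.57, against control levels of 12.40, 12.39, 12.34 and 12.26. For both genes the cKO RNA was the higher one in replicate 4 and the lower one on the other arrays. The mean log2 ratios were 0.05 ± 0.16 for Gja4 (interval from -0.16 to 0.25) and -0.02 ± 0.23 for Gja5 (interval from -0.23 to 0.19). Replicate 4 gave log2 ratios of 0.28 for Gja4 and 0.31 for Gja5. On that array the median log2 ratio of 10 other arterial endothelium genes was 0.18, against -0.07, 0.03 and 0.06 in replicates 1, 2 and 3. These 10 genes ran from -0.35 (Nrp1) to 0.34 (Dll4) in replicate 4. For 12 endothelium genes the medians were 0.02, 0.03, 0.15 and 0.10 in replicates 1 to 4, highest in replicate 3, where Gja4 and Gja5 were below 0. The part of vessel RNA in these values was not tested.

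Gja5 had 2 further probes, for other transcripts of the locus on chromosome 3. Their levels lay between 6.74 and 6.89 in cKO RNAs and between 6.72 and 6.86 in control RNAs. Both probes were dim, with raw signals of 57.5 to 131 on a local background of 26 to 79. The mean log2 ratios were -0.02 ± 0.03 and 0.02 ± 0.07 (SD, n = 4), and neither passed the test. With every kept probe tested on its own, 0.58% of 28611 probes were called lower. The probes of Gjb2 and Gjb6 were among them, with limma adjusted p of 0.00828 and 0.00670.

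The 6 connexins that were not called had limma adjusted p between 0.973 and 1.00, and their median log2 ratio was 0.01. With the background correction used here, their 95% intervals allow cKO levels between 0.814 of control (Gja1) and 1.22 of control (Gjb5). The Gjb5 probe is dim, and its ratio depended on how background was handled. Differences the size of those of Gjb2 and Gjb6 lie outside all 6 intervals, but smaller differences do not. A missed threshold does not show equal levels.

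**Figure D2:**
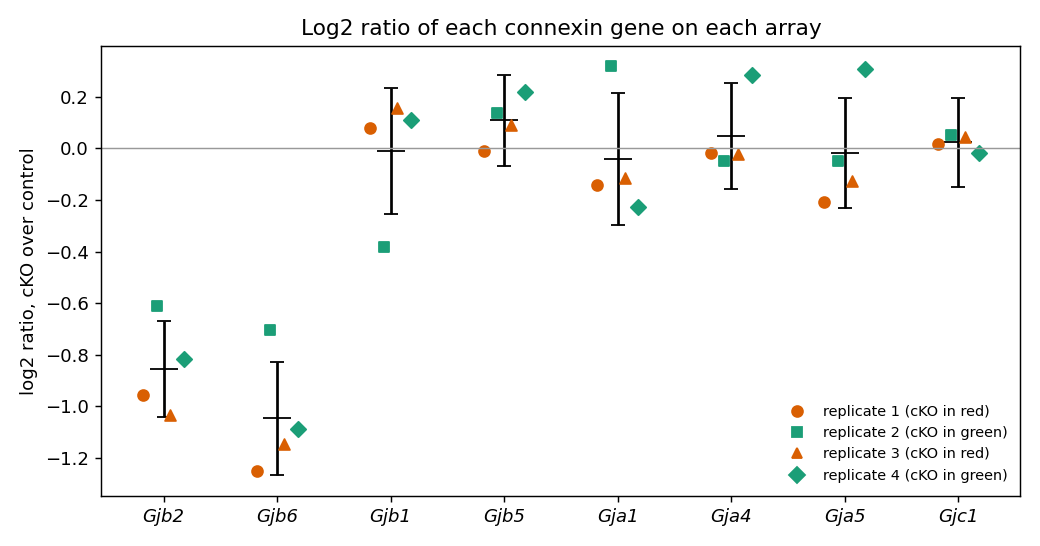
Log2 ratio of cKO over control (y axis) for each connexin gene on each array, with the point shape giving the replicate and the colour giving the dye of the cKO RNA. Horizontal ticks are means and vertical bars 95% intervals from limma; the intervals of Gjb2 and Gjb6 lie below 0 and the other 6 include 0.

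The difference between cKO and control was compared between sexes and between dyes. Gjb2 averaged -0.93 on the male arrays and -0.78 on the female arrays, and Gjb6 averaged -1.12 and -0.98. A cKO-by-sex term was called for neither gene (limma adjusted p = 1.00 for both), and for 0.0698% of all genes. With cKO in red the mean log2 ratios were -0.995 for Gjb2 and -1.20 for Gjb6, and with cKO in green -0.72 and -0.90. The dye term had limma p of 0.118 for Gjb2 and 0.144 for Gjb6 before adjustment and 1.00 after it. No gene had a dye term past the threshold after adjustment, and 429 genes (2% of 21501) had one at an unadjusted p under 0.05.

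Gjb2 was read by a dim probe. Its raw signal was 155, 107.2, 177 and 87.5 in the cKO RNAs of replicates 1 to 4, against 197, 251, 285 and 260 in the control RNAs. The local background was 26.5 to 74.5, so part of each signal was background. The Gjb6 probe was brighter, with 823, 588, 1031 and 563 in cKO RNAs against 1359, 1189, 1856 and 1634 in control RNAs. Before normalisation the red and green channels differ in scale, so these signals show brightness and not ratios.

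The size of the Gjb2 difference depended on how background was handled, and that of Gjb6 did so less. With the processed signals of the scanner software, the log2 ratios of Gjb2 were -1.57, -0.94, -1.52 and -1.35, with a mean of -1.35 (limma adjusted p = 0.00254). Gjb6 then had a mean of -1.12 (adjusted p = 0.00463). In the authors' deposited table the log2 ratios were -1.69, -0.95, -1.60 and -1.32 for Gjb2 and -1.35, -0.79, -1.24 and -1.13 for Gjb6. On all 4 arrays both genes were thus lower in cKO by each of these sets of values. A limma fit to the deposited table gave means of -1.39 for Gjb2 and -1.13 for Gjb6 with adjusted p of 0.190 and 0.205, and it called 0 genes lower of all tested (957 at an unadjusted p under 0.05). Without a filter on dim probes, the adjusted p was 0.0403 for Gjb2 and 0.0523 for Gjb6, so that only Gjb2 passed.

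Which of the 2 genes differed more was not settled. The log2 ratio of Gjb6 minus that of Gjb2 was -0.30, -0.09, -0.11 and -0.27 on the 4 arrays, with a mean of -0.19 ± 0.11 (SD, n = 4). An exact two-sided sign-flip permutation test gave p = 0.125, the smallest value that 4 arrays allow. With the scanner software's processed signals the difference was above 0 on all 4 arrays, with a mean of 0.22. With a smaller offset in the background correction, 10 in place of 50, it was -0.018.

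**Figure D3:**
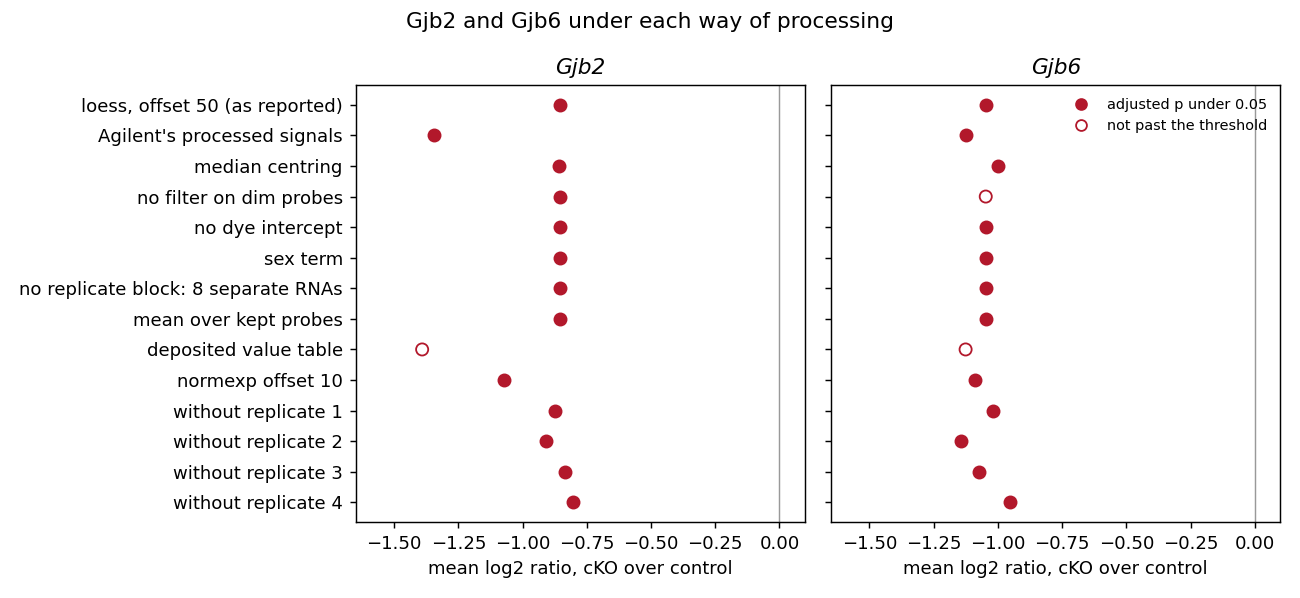
Mean log2 ratio of cKO over control (x axis) for Gjb2 (left panel) and Gjb6 (right panel) under each way of processing the arrays (rows), filled where the limma adjusted p was under 0.05. All values are below 0; Gjb2 ranges from -1.39 to -0.80 and Gjb6 from -1.14 to -0.95.

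Gjb2 and Gjb6 are neighbours on chromosome 14. In the RefSeq gene table (assembly GRCm38.p6, used for gene order) they lie next to each other, with no other protein-coding gene between them. Gja3, a connexin of the eye lens on the Gjb2 side, had log2 ratios of -0.16, -0.02, -0.14 and 0.00 (mean -0.08 ± 0.08). Cryl1, which encodes lambda-crystallin on the Gjb6 side, had -0.08, -0.30, -0.31 and 0.04 (mean -0.16 ± 0.17), and beyond it Ift88, a gene of cilium assembly, had a mean of 0.01 ± 0.23 (SD, n = 4). None of these 3 neighbours was called, with limma adjusted p of 0.883 for Cryl1 and 1.00 for the other 2.

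The region before the transcription start is shown for Gjb2 and Gjb6, the 2 connexins that were lower in cKO. The sequences are the 250 bases before the start from RefSeq (GRCm38.p6, minus strand), for Gjb2 at chr14:57104703-57104952 and for Gjb6 at chr14:57133612-57133861. Of the 8 genes, 7 were found in the promoter table used. Motifs were searched on both strands as exact letters, with N for any base. The paired CNNG motif is CNNG, then 6 bases of any kind, then CNNG, after the cores that the p53 family of factors, p63 included, binds. GGGCGG is the GC box, TTAAAA and TATAAA are TATA-like, and TGANTCA is the AP-1 motif. Capitals mark every match to any of these 5, and matches that overlap run together. CATG was searched too and is in neither stretch.
Gjb2 promoter: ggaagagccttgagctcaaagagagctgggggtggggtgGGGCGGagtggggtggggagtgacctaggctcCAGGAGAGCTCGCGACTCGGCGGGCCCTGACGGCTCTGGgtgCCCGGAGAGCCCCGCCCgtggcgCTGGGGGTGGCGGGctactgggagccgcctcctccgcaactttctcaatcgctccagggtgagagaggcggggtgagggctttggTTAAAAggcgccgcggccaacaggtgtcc
Gjb6 promoter: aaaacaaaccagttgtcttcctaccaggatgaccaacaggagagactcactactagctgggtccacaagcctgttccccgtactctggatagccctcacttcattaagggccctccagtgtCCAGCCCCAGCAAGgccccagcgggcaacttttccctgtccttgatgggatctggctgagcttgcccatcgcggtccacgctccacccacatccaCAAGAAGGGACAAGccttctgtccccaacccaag
The Gjb2 stretch had 6 matches to the paired CNNG motif, several of which overlap, 2 GC boxes and 1 TTAAAA that starts 29 bases before the start of transcription. Its GC content was 69.2%. The Gjb6 stretch had 2 matches to the paired CNNG motif, none to the other 4, and a GC content of 56.8%. Stretches of this length held the paired CNNG motif in 63.4% of 32817 promoters, the GC box in 32.7%, TTAAAA in 17.7%, TATAAA in 12.4% TGANTCA in 6.75% and CATG in 53.9%. The paired CNNG motif is thus found in most promoters, and a match is not a binding site.

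The other connexins on the array were 12 genes, of which 8 were well above background and tested. None was called in either direction by limma, and the median of their mean log2 ratios was -0.05. At an unadjusted p under 0.05, 1 was lower and 0 higher.

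Genes that act with connexins were taken as a list of 14, of which 12 were tested. They comprise pannexins, which form channels related in shape, and proteins that bind connexins or carry them to the membrane. None of the 12 was called, and the mean log2 ratios ran from -0.40 to 0.11 with a median of 0.05. Tjp1, the scaffold that binds the tail of Gja1, had 0.11 ± 0.23, and Cnst, which encodes consortin, a connexin trafficking receptor, had 0.06 ± 0.17. Panx1 had -0.10 ± 0.13, and Panx2 and Panx3, both on the array, did not pass the filter on dim probes. The lowest was Cdh1, the E-cadherin of epithelial adherens junctions, at -0.40 ± 0.26 (SD, n = 4, limma adjusted p = 0.301).

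Markers of the cells a ureter holds were measured beside the connexins. In bulk RNA, fewer cells of a type and less RNA per cell cannot be told apart. Trp63 had log2 ratios of -1.39, -1.18, -1.30 and -1.62 (mean -1.37 ± 0.18, SD, n = 4, limma adjusted p = 0.00323). Of 15 basal epithelium genes, 9 were lower in cKO and 0 higher, with a median of -0.85. The 4 with the smallest p were Dapl1 (-2.12 ± 0.25), Cdh3 (-1.66 ± 0.42), Trp63 and Krt5 (-1.87 ± 0.42). Summed over the 15 genes, the linear level was 72043 to 79468 in cKO RNAs and 79330 to 103400 in control RNAs, so the ranges overlap. Such sums, here and below, weigh the brightest probes most. All 15 were above background. The lower values of Gjb2 and Gjb6 thus stood beside lower basal markers, and the part of the basal cells in them was not tested.

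Of 18 genes of epithelium in general, 0 were lower and 1 higher, Krt18 (0.50 ± 0.14), with a summed level of 628777 to 658889 in cKO RNAs and 553323 to 607225 in control RNAs. Of 10 superficial urothelium genes, Upk2 (-0.54 ± 0.11) and Grhl3 (-0.68 ± 0.22) were lower and Krt20 (1.92 ± 0.19) higher, with a median of 0.00. Gja1 is known from epithelium too, whose called markers are given above. For the vessel, muscle and mesenchyme cells in which Gja1, Gja4, Gja5 and Gjc1 are known, no marker was called in either direction. This holds for 12 endothelium genes (median 0.11), 10 arterial endothelium genes (0.02), 12 smooth muscle genes (0.02) and 12 mesenchyme and stroma genes (-0.02). For Schwann cells and neurons, which can hold Gjb1, 0 of 12 were called (median -0.09). The summed endothelial level was 115422 to 124290 in cKO RNAs and 109353 to 115647 in control RNAs.

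Kidney, liver and gut markers were used as a check for other tissue. Of 7 tested kidney tubule genes, Cubn (2.22 ± 0.28) was higher in cKO, and of 7 liver and gut genes Fabp1 (3.09 ± 0.24) and Ttr (1.59 ± 0.44) were higher, with no other gene of these lists called. Whether tissue of these kinds adds to the level of any connexin was not tested.

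**Figure D4:**
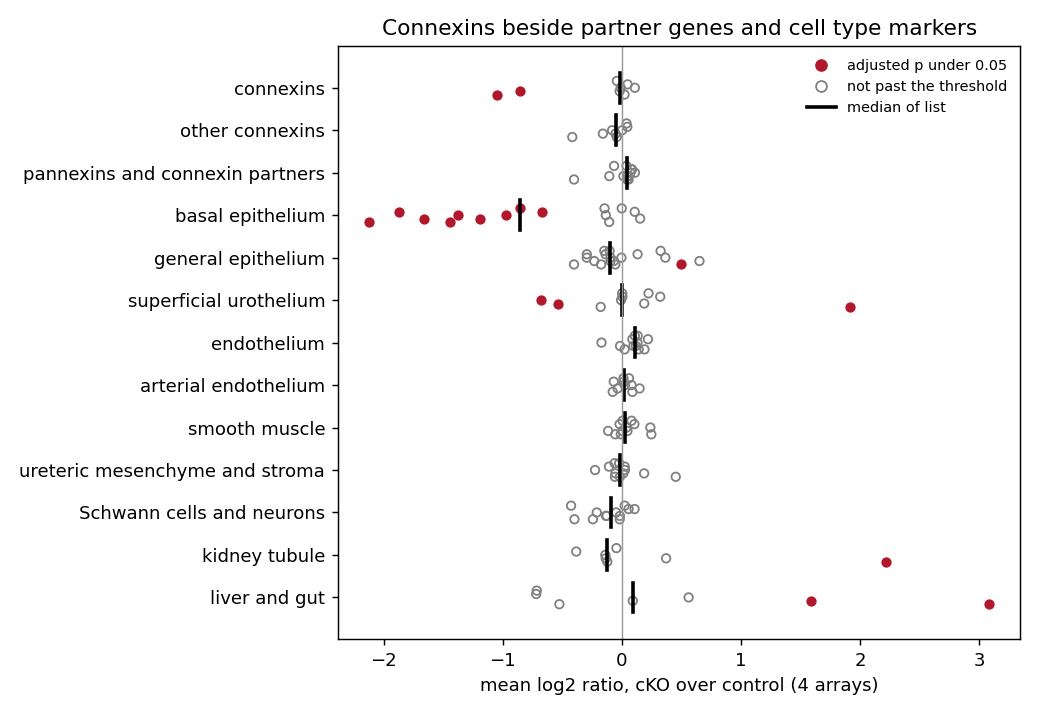
Mean log2 ratio of cKO over control on 4 arrays (x axis) for each tested gene of the connexins, the other connexins, the partner genes and the cell type markers (rows), filled where the limma adjusted p was under 0.05, with a black bar at each list's median. Gjb2 (-0.86) and Gjb6 (-1.05) stand apart from the other 6 connexins, which lie between -0.04 and 0.11.

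The called genes with the most similar pattern were sought by root mean square distance over the 4 array log2 ratios, among 244 other called genes with a name. Nearest to Gjb2 were Krt6a, a keratin of stratified epithelia, at a distance of 0.0254, Gna15, a G protein alpha subunit, at 0.0886, and Gpr132, a G protein coupled receptor, at 0.115. Krt6a had log2 ratios of -0.93, -0.62, -1.005 and -0.85, set against -0.95, -0.61, -1.04 and -0.82 for Gjb2. Nearest to Gjb6 were Edaradd, the adaptor of the ectodysplasin receptor, at 0.0852, Tfap2c, a transcription factor of the AP-2 family, at 0.0993, and Tmprss13, a membrane serine protease, at 0.117. Gjb6 ranked 28th among the genes nearest to Gjb2, and Gjb2 ranked 13th among those nearest to Gjb6, at a distance of 0.213. These distances describe 4 arrays and share their noise.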

How the data were processed

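RNA of 4 cKO and 4 control ureter samples was hybridised as 4 pairs, with dyes swapped. Per the labels' protocols, 200 ng of total RNA went through 1 round of T7 amplification. The authors' scanner files, from Agilent Feature Extraction 10.7.3.1 (submitters' processing notes), hold each spot's intensity and its local background, and quality flags of other units, as deposited. Probe coordinates are of mm9, per the file headers. All arrays lie on 1 slide, so no batch could be formed. A table of log2 ratios was also deposited by the authors. Its slopes on the processed red over green signals were 1, -1, 1 and -1, so it runs cKO over control. Column medians are 0. Exact zeros make up 32.2% to 32.6% of the values; the sources used here do not say why.

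Here, background was corrected by normexp (offset 50), ratios were normalised by loess within arrays with control spots at weight 0, 17 to 33 nonuniform spots an array were dropped and the 4 spots of a probe averaged. Levels were then read from the channels after Aquantile scaling between arrays. The filter asked that a share of 0.5 or more of a probe's spots be flagged as well above background on all 4 arrays, in cKO or in control RNA. It left 28611 of 39429 probes, and the brightest kept probe stood for a gene. Median signals were 382 to 416 in green and 519 to 617 in red, and no spot was saturated; the number of arrays limits the precision. Log2 ratios were fitted with limma 3.58.1 (R 4.3.3), with 1 coefficient for cKO over control and 1 for dye, which left 2 residual degrees of freedom. P-values are two-sided and adjusted over all genes, errors are SDs, and intervals are 95%. The array is the pair, since it holds both RNAs; a fit without this pairing was an alternative.

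The 8 members and all lists were chosen with earlier results of these data known. The genes named are Trp63, the 8 connexins, called genes of the other connexin and partner lists, the 3 called genes most like each called connexin, and up to 4 called genes of each marker list with the smallest p. Further genes were added as neighbours on the chromosome or as examples. The offset of 10 and the difference of Gjb6 and Gjb2 were added after seeing the data. Some values are not reported here.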

Additional observations from a re-analysis of the deposited data

Results flagged for a closer look

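Each connexin's 4 log2 ratios were searched for an array far from the others, by the gap to the nearest array divided by the whole range. For Gjb1, replicate 2 lay at -0.38 while the other 3 arrays lay between 0.08 and 0.16, a gap of 0.857 of the range, past Dixon's critical value for 4 samples. For Gja4, replicate 4 lay at 0.28 while the others lay between -0.05 and -0.02, a gap of 0.907 of the range. The critical value is set so that chance marks about 1 in 20 genes if ratios are normally distributed. The share marked among all genes was not counted. Without the array in question the mean was 0.11 for Gjb1 and -0.03 for Gja4, and neither gene was called (limma adjusted p = 0.647 and 0.810).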

How the results depend on the processing

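Every result was recomputed under 13 alternatives, 1 of them added after seeing the data. Both Gjb2 and Gjb6 stayed below 0 in all 13, but many of these could not change the sign. The means were unchanged (-0.86 and -1.05) without the filter, without the dye intercept and with a sex term. They were also unchanged without the pairing and when averaged over kept probes. Both genes were below 0 on all 4 arrays, so leaving 1 array out could not change the sign. Gjb2 was called in 12 of the 13 and Gjb6 in 11. The calls with an array left out or with a sex term add little to these counts. Those fits have 1 residual degree of freedom and borrow their error in large part from other genes. The mean log2 ratio of Gjb2 ranged from -0.91 to -0.80 with an array left out, and that of Gjb6 from -1.14 to -0.95. Without a filter on dim probes, 55 genes were called lower, 31 higher and 1 connexin lower, and Gjb6 (-1.05) had a limma adjusted p of 0.0523. The deposited table gave 0 genes lower, 1 higher and 0 connexins (at an unadjusted p under 0.05, 957, 825 and 2), with Gjb2 at -1.39 (adjusted p = 0.190), Gjb6 at -1.13 (0.205) and Gjb6 minus Gjb2 at 0.26. That difference was 0.22 with processed signals, -0.018 with an offset of 10, and -0.24 to -0.15 with an array left out. No dye intercept gave 266 genes lower and 194 higher, and a sex term 310 and 233. With an array left out, 155 to 853 genes were called lower and 128 to 750 higher; these fits have 1 residual degree of freedom. Without the pairing of RNAs on an array (no replicate block, 8 separate RNAs), the adjusted p was 0.00931 for Gjb2 and 0.0256 for Gjb6, and the connexin calls were the same. The other 6 connexins were called in none of the 13, and 9 of their 78 values had the other sign. The cause of these changes was not tested. Gjb2, read by a dim probe, has the least certain size.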
